A study of Bos taurus with 2 samples.

Results

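Cluster 6 of the cultured bovine satellite cells held 1575 of 19096 cells (8.25%). Its cells carried high levels of transcripts for DNA replication together with MYOD1, the transcription factor that specifies myoblasts. MYOD1 was as high or higher in several other clusters, and was not counted as higher than in all other cells. The authors left cluster 6 without an identity. They held it not to be myogenic, since myogenic markers including MYOD1 were not significantly enriched there. The authors grouped the cells into 15 clusters by their transcriptomes and deposited the average level of each gene in each cluster, but the cluster of single cells was not taken from a deposited list. The members were therefore found by elimination. Each deposited average, multiplied by the UMI total of its cluster and divided by 14889, is a whole number of UMIs, and these sums fixed the cluster of all 19096 cells. Sums recomputed from the members equalled the deposited ones in all 252240 pairs of gene and cluster.

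The cells came from skeletal muscle of 1 Holstein calf, a male aged 2 weeks, and were cultured for 1 week in DMEM with fetal bovine serum before 2 libraries, called replicates 1 and 2 here, were prepared on the 10x Genomics platform. There was no treatment, genotype or time contrast, and the cultures held whatever cells the isolation had kept, so the comparisons below are between clusters of the same libraries. On this platform each captured RNA molecule is tagged with its cell's barcode and with a random molecular tag (UMI), and molecules are counted from their 3′ ends. Both libraries were made from the same cultured cells, each from its own draw of them. The spread between the libraries, given as SD with n = 2, comes from that draw and from preparing and sequencing. It does not come from animals. Replicate 1 held 145631299 UMIs in 9939 cells and replicate 2 held 137818568 UMIs in 9157 cells.

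Before a cell divides it copies its DNA once, in S phase. Origins of replication are loaded in G1 with the MCM helicase by the ORC complex, CDC6 and CDT1. The helicase is then fired by cyclin-dependent kinases, and polymerases, the sliding clamp PCNA and histone chaperones follow the fork, while E2F factors and cyclin E drive the transcription of these genes. Satellite cells, the stem cells of postnatal muscle, express PAX7 when quiescent. Once activated they divide as myoblasts that express MYOD1 and MYF5, leave the cell cycle with help of the inhibitors CDKN1A and CDKN1C, and express MYOG and the contractile genes as they differentiate and fuse.

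Replicate 1 had 827 cells of cluster 6, which were 8.32% of its cells (exact 95% binomial interval 7.79 to 8.88%). Replicate 2 had 748 cells, which were 8.17% (7.62 to 8.75%). The intervals overlap, so the share of the cluster was not distinguishable between the libraries at this depth, and they cover counting error only. The cells were deep, with a median of 17566 UMIs and 3981 genes in replicate 1 and 18385.5 UMIs and 4126 genes in replicate 2, against 14626 and 15206 UMIs over all cells. The shallowest cell held 4647 UMIs and the deepest 52961. In all, cluster 6 contributed 16040758 UMIs in replicate 1 and 15256911 in replicate 2, which puts a limit of 0.000959 UMI per 10000 on a gene with no UMI in the cluster.

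Barcodes that hold the RNA of more than 1 cell, called doublets, were searched for with Scrublet. Of the cells of cluster 6, 131 (15.8%) in replicate 1 and 140 (18.7%) in replicate 2 were among the cells called doublets, and the overall share of 17.2% was the highest of the 15 clusters, ahead of 14.4% in cluster 9 and 12.7% in cluster 5. Cluster 11, the other cluster with a high S phase level, had 4.73%. These cells were kept, and values without them are given beside several of the results. The libraries shared 27 barcodes, 6 of them with a cell in cluster 6 and 0 with both cells in it.

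A level below is the number of UMIs of a gene or gene list per 10000 UMIs, from counts summed over the cells of a cluster in each library. A ratio is the log2 of 2 such levels within a library, with 0.5 UMI added to each sum, averaged over both libraries. A gene was counted as higher or lower where it differed by 1.5-fold or more in the same direction in both libraries, among genes with at least 20 UMIs over both groups in each library. Leading genes are those with the largest ratios among the called genes that have a symbol and at least 1 UMI per 10000 in the higher group, and genes below that level can have larger ratios. Since the clusters were made from these same counts, a cluster against other cells is a description and not a test, and no p-value is given for a gene. An exact permutation test of 2 sums against 2 could not go below p = 0.333 in any case.

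The levels of the markers given with the cluster, MCM3, MYOD1 and ACACB, were looked at first. The clusters were made from these same counts, so the levels describe the label and are no independent check of it. MCM3, a subunit of the replicative helicase (ENSBTAG00000010721), was at 2.95 UMIs per 10000 in replicate 1 and 2.90 in replicate 2. This was the highest level of the 15 clusters, above 2.53 and 2.30 in cluster 11, the next in order, with no overlap of the library values. All other cells together had 1.04 ± 0.018 (SD, n = 2), which gave a log2 ratio of 1.49 ± 0.01.

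MYOD1 (ENSBTAG00000002216) was at 6.07 in replicate 1 and 5.44 in replicate 2. Clusters 13, 2 and 3 had more, at 6.75, 6.72 and 6.35, and the library values of cluster 3, 6.52 and 6.18, did not overlap those of cluster 6. Cluster 10, at 5.76 and 5.44, overlapped with it. Cluster 1, the largest cluster, was lower at 5.30 and 5.07. The levels then dropped to 3.96 in cluster 12 and reached 1.35 in cluster 11 and 0.571 in cluster 9, the cluster with the lowest level. Against all other cells the ratio was 0.58 ± 0.06, at the 1.5-fold limit and past it in 1 library only, so that MYOD1 was not counted as higher. The ratio was 0.64 with cells assigned by profile and 0.68 with the other clusters weighted equally, and in both settings 1 of 20 myogenic regulators was higher. High MYOD1 was thus not particular to cluster 6, which lay above clusters 1, 12 and 11 and below clusters 2 and 3.

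ACACB (ENSBTAG00000022058) encodes acetyl-CoA carboxylase beta, which makes the malonyl-CoA that restrains entry of fatty acids into mitochondria. It was at 1.40 in replicate 1 and 1.29 in replicate 2. Cluster 11 had 1.33 and 1.27, so that the library values of both clusters overlapped, and cluster 5 followed at 1.04. Cluster 2 had 0.479 and cluster 1 had 0.362. ACACB was therefore high in both clusters with high S phase levels and did not separate them.

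**Figure D1:**
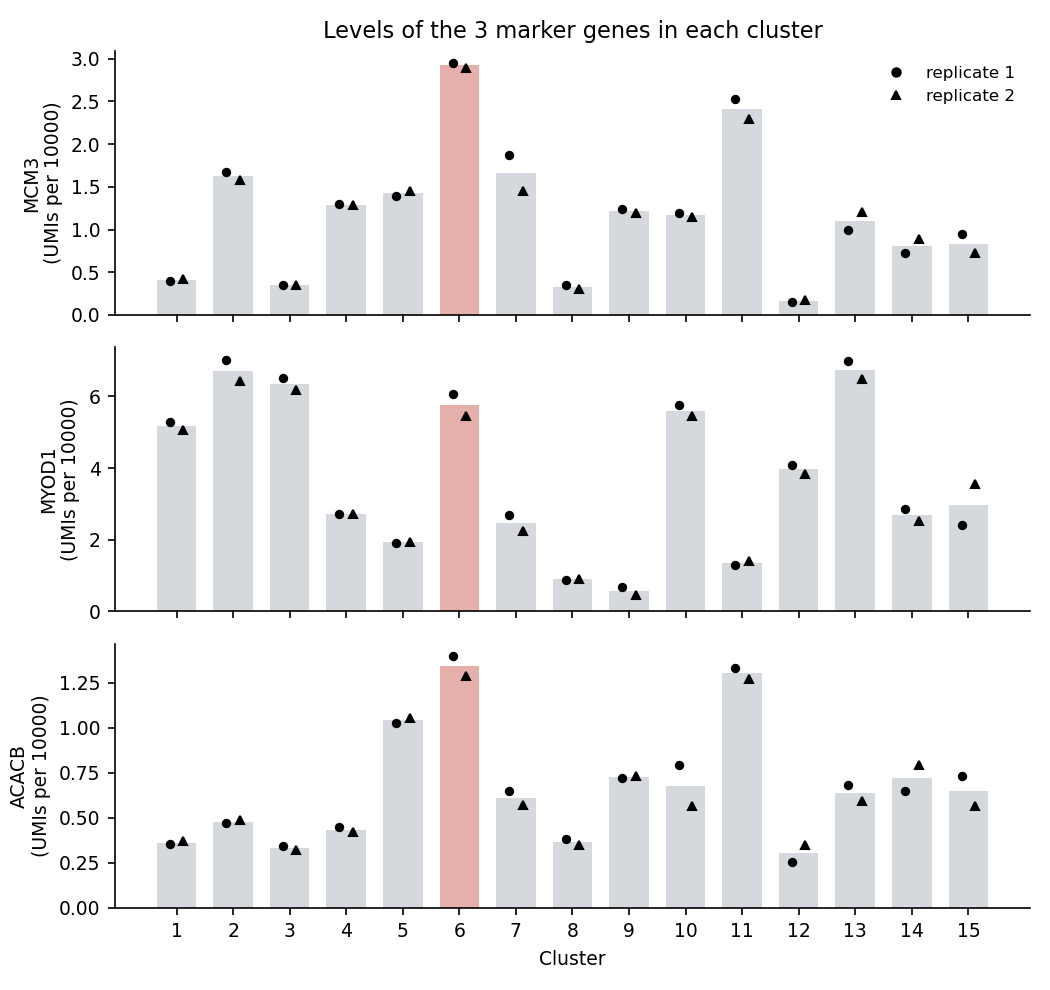
Levels of MCM3, MYOD1 and ACACB (y axes, UMIs per 10000 UMIs) in the 15 clusters (x axis); bars are means of both libraries, circles replicate 1 and triangles replicate 2. Cluster 6, in red, was highest for MCM3 at 2.92, in the fourth place for MYOD1 at 5.75 and level with cluster 11 for ACACB at 1.34.

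The S phase list names 43 genes that are widely used to mark S phase. Of these, 42 were found, under 43 identifiers, and the list level sums those identifiers. It reached 45.3 UMIs per 10000 in replicate 1 and 43.3 in replicate 2 of cluster 6. Cluster 11 had 46.7 and 44.7, which overlaps with cluster 6, and no other cluster exceeded 34.3 in a library. Cluster 1 had 10.7 and 10.8. The G2/M list of 54 genes, which mark the preparation and course of mitosis, was at 65.6 and 62.9 in cluster 6, sixth in order, against 155 in cluster 2 and 142 in cluster 4. Clusters 6 and 11 thus stood together, with the highest S phase levels and a G2/M level that was less than that of cluster 2 and more than the 21.8 of cluster 1.

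**Figure D2:**
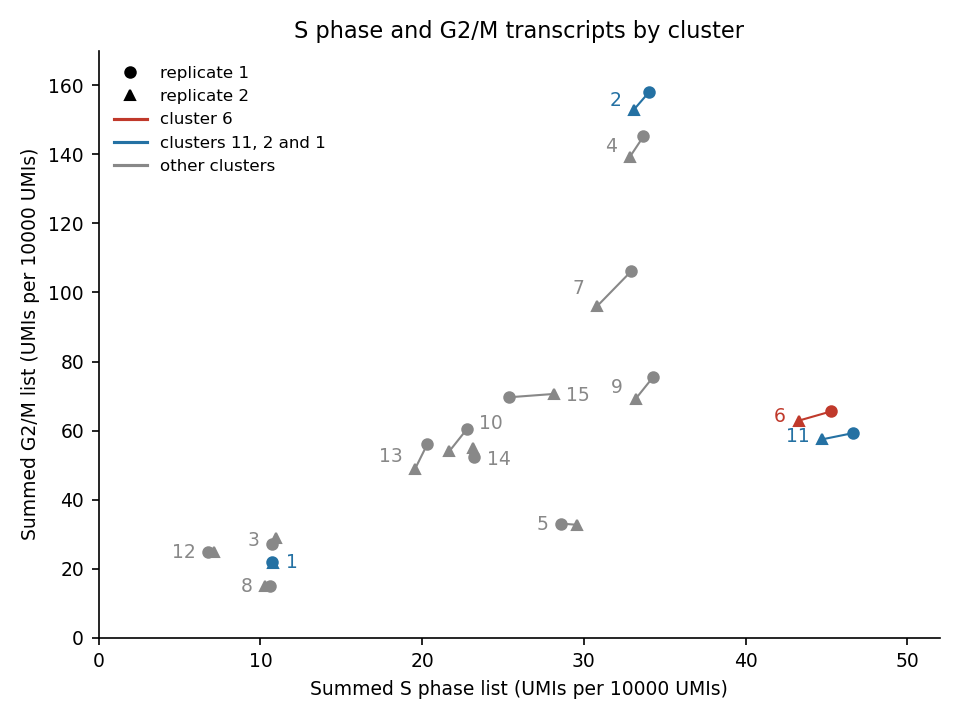
Summed level of the G2/M list (y axis) against that of the S phase list (x axis), both in UMIs per 10000 UMIs, for the 15 clusters, with a circle for replicate 1 and a triangle for replicate 2 joined by a line. Clusters 6 (44.3 for S phase, 64.2 for G2/M) and 11 (45.7 and 58.4) lie apart from all others on the S phase axis.

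Against all other cells, 330 of 12879 genes were higher in cluster 6 (2.56%) and 766 were lower (5.95%), with a median ratio of −0.04 over all genes. Of the 43 identifiers of the S phase list, which stand for 42 genes, 33 were higher and 0 lower, with a median ratio of 0.94. The genes of both phases were among those that shaped the clusters, so these counts describe the cluster. With edgeR's quasi-likelihood test on the same sums, 1387 of 13064 genes were higher and 1239 lower at an adjusted p under 0.05. With the library as a block, since sums of 1 library are paired, they were 2840 and 2451. The clusters were made from these counts, so this is no test of the cluster. The edgeR numbers set differences against the spread between the libraries only.

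The genes that load and fire origins were higher as a group. Of 24 genes, 15 were higher and 0 lower, with a median ratio of 0.84. CDC6, the loading factor, had the largest ratio of the list. It was at 0.384 and 0.359 in cluster 6 and at 0.0960 and 0.0912 in all other cells, a ratio of 1.99 ± 0.02. Cluster 11 came next at 0.355, and cluster 5 followed at 0.218. ORC1, the subunit of the origin complex whose level cycles, had a ratio of 1.36 ± 0.18, while the other subunits ORC2, ORC3, ORC4 and ORC5 had ratios of 0.33, 0.54, 0.11 and 0.32 and were not counted as higher. All 6 subunits of the helicase were higher, from 0.62 for MCM7 to 1.49 for MCM3, with MCM5 at 1.00 and MCM2 at 0.92. GMNN, the inhibitor that blocks a second loading of origins, was at 1.23 and 1.22 against 0.568 and 0.561, a ratio of 1.12 ± 0.01. The kinase subunit DBF4 was at 0.506 and 0.486 against 0.499 and 0.481.

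Of 28 genes of the replication fork, 17 were higher and 0 lower, with a median ratio of 0.77. PCNA was at 4.30 and 4.09 in cluster 6 and at 1.99 in all other cells in both libraries. Its level in cluster 11, 4.26 and 4.25, lay between these values. The polymerase alpha subunit POLA2 had a ratio of 1.31 ± 0.04, and its catalytic partner POLA1 had 0.18 ± 0.18, with 0.707 and 0.602 in cluster 6 against 0.572 and 0.579. FEN1, which trims Okazaki fragments, had 1.22 ± 0.09 and CLSPN, which couples the fork to the checkpoint kinase, 1.22 ± 0.01. RPA3 and RFC1 were among the 11 genes that were not called, with ratios of 0.27 and 0.25.

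The enzymes that supply nucleotides differed less. Of 19 genes, 4 were higher and 0 lower, with a median ratio of 0.39. Among the 4 were RRM2 (1.09), the ribonucleotide reductase subunit that accumulates in S phase, and the nucleoside kinases DCK (1.08) and TK1 (0.80). TYMS, thymidylate synthase, was at 1.90 and 1.89 against 1.46 and 1.44, and DUT, at 8.83 and 8.22 against 7.12 and 6.91, had a ratio of 0.28. ATIC of purine synthesis had 0.03. At any size of difference, and counting those 4, 17 of the 19 genes were higher in both libraries and 0 were lower in both.

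Genes that rebuild chromatin behind the fork were higher in 12 of 15 cases, with a median of 0.83 and none lower. UHRF1, which brings the maintenance methyltransferase to new DNA, was at 2.24 and 2.22 against 0.947 and 0.959. The chromatin assembly factor subunits CHAF1A and CHAF1B had ratios of 1.37 and 1.05, NASP, a histone chaperone, 0.92, and SLBP, which binds the end of histone mRNAs, 0.96. ATAD2 carries 2 gene identifiers in the deposited list, with ratios of 0.83 and 0.72, and the counting could have split reads between them. Among the linker histones, HIST1H1E (1.14) and HIST1H1C (1.03) were among the 12 leading genes, as defined above by level, against all other cells. HIST1H1E also carries 2 identifiers, and the ratio is that of the more abundant one.

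Replication stress and repair genes followed the same pattern, with 16 of 20 higher, none lower and a median of 0.85. BARD1 had a ratio of 1.34 ± 0.07 and EXO1, an exonuclease of mismatch repair, 1.31 ± 0.03. BRCA2 was at 1.16 and 1.09 against 0.561 and 0.546. ESCO2, which establishes cohesion between sister chromatids during replication, was at 1.16 and 1.08 and had a ratio of 1.13 ± 0.07. Cluster 2 came next for ESCO2 at 1.10 and overlapped with cluster 6.

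Of 24 regulators of the G1 and S phases, 10 were higher and 2 lower, with a median of 0.35. The cyclins E, which act with CDK2 at the start of S phase, were higher, with CCNE2 at 0.210 and 0.236 against 0.0746 and 0.0775 (ratio 1.55) and CCNE1 at 0.152 and 0.147 against 0.0732 and 0.0684 (1.08). The cyclins D were not: CCND1, CCND2 and CCND3 had ratios of −0.14, 0.05 and 0.01, and CCNA2 had −0.07. E2F1, at 0.191 and 0.206, and the repressors E2F7 and E2F8 had ratios of 1.13, 1.44 and 1.07. E2F2 had 1.89 from a level of 0.0141 only.

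The 2 lower regulators were inhibitors of cyclin-dependent kinases. CDKN1C was at 3.03 and 3.11 in cluster 6 and at 7.61 and 7.82 in all other cells, a ratio of −1.33 ± 0.00. Its level ran from 37.4 in cluster 12 to 0.393 in cluster 11, and cluster 6 was the tenth in this order. CDKN1A was at 0.867 and 0.789 against 1.69 and 1.65. Leaving out the cells called doublets lowered CDKN1C in cluster 6 to 2.07 and 2.14, and its ratio to −1.92.

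The G2/M list was close to its level in all other cells, with a median of −0.12, which became 0.03 when the other clusters were weighted equally. Of its 54 genes, 1 was higher and 4 were lower, against 2.56% and 5.95% of all genes. TMPO, a protein of the nuclear envelope, was the gene that was higher (0.64). Those that were lower were CENPE (−0.76), CENPA (−0.74) and CENPF (−0.68), which act at centromeres, and PIMREG (−0.73). MKI67, at 2.79 and 2.72 against 3.26 and 3.19, had a ratio of −0.23.

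Of 20 myogenic regulators, 0 were higher than in all other cells and 2 were lower, against 2.56% and 5.95% of all genes. The 2 were MEF2C, at a level of 0.00285, and MYOG. MYOG, the regulator of differentiation, was at 0.822 in replicate 1 and 0.618 in replicate 2 of cluster 6, against 2.26 and 2.32, a ratio of −1.68 ± 0.32. Without the doublets it was at 0.536 and 0.311, and its ratio was −2.53. MYF5, which marks activated satellite cells and myoblasts, was at 0.868 and 0.887 against 0.993 and 0.926, eighth of the 15 clusters. ID1 and ID3, which hold myogenic factors inactive, had ratios of 0.18 and 0.16. PAX7 had 11 UMIs in replicate 1 and 8 in replicate 2, and PAX3 had 17 and 19. Their levels of 0.00605 and 0.0115 were too low for an order among clusters.

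Contractile and fusion genes were lower than in all other cells together, with 19 of 29 genes of the muscle list lower, 0 higher and a median of −1.35. Their summed level was 30.95 in replicate 1 and 29.6 in replicate 2, against 385 in cluster 12 and 122 in cluster 3. Cluster 6 was ninth of the 15 clusters for this list. It overlapped with cluster 13, the next above, and lay above clusters 10, 8, 4, 5, 9 and 11, which had from 27.7 down to 10.2. The order against cluster 10 was not firm, since cluster 6 had 24.7 without its doublets and 26.3 with cells assigned by profile. ACTA1, skeletal alpha actin, was at 0.112 and 0.110 against 1.12 and 1.05, MYH3, embryonic myosin, at 0.236 and 0.180 against 1.08 and 1.205, and MYLPF, a fast myosin light chain, at 1.91 and 1.74 against 6.46 and 6.28. Without the doublets MYLPF was at 1.29 and 0.920 in cluster 6. DES, the intermediate filament that myoblasts make before they fuse, was close to other cells at 4.08 and 3.78 against 4.68 and 4.57. CHRNA1 and CDH15, a receptor subunit and a cadherin of myoblasts, had ratios of 0.10 and 0.25. In the cells called doublets the mean of MYOG was 0.817 and 0.557 UMIs per cell at 5000 UMIs, against 0.233 and 0.120 in the rest.

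The leading genes outside these lists were few. IGFBP3, a secreted protein that binds insulin-like growth factors, was at 2.96 and 2.83 in cluster 6, more than in any other cluster by the mean, with a ratio of 1.14 ± 0.04. Cluster 7 followed at 2.52 and cluster 11 had 0.855. The shallow cluster 13 spread from 1.501 to 3.04 and overlapped with cluster 6. CXCL5, a chemokine, had its lowest level of the 15 clusters in cluster 6, at 0.0810 and 0.0859, and was at 8.76 in cluster 9. The integrin subunit ITGA5 had a ratio of −1.61 and the creatine kinase CKB one of −1.38.

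**Figure D3:**
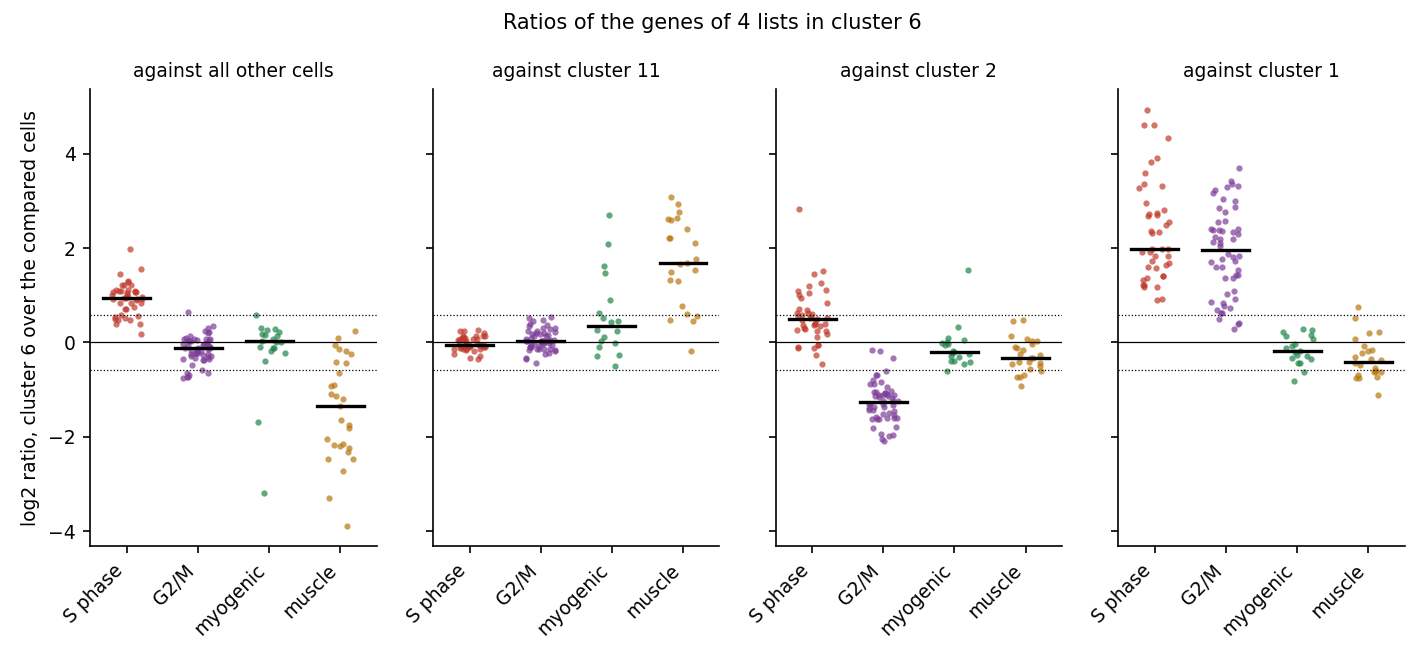
log2 ratios of single genes (points; y axis) of the S phase, G2/M, myogenic regulator and muscle structure lists in cluster 6 over all other cells, cluster 11, cluster 2 and cluster 1 (panels), with the median of each list as a bar and dotted lines at 1.5-fold. The S phase medians are 0.94, −0.05, 0.49 and 1.98, and the muscle medians −1.35, 1.68, −0.33 and −0.41.

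The profile of cluster 6 was most like those of clusters 2 and 11. Over 9067 genes with at least 1000 UMIs, the median absolute log2 difference was 0.129 to cluster 2, 0.145 to cluster 11, 0.192 to cluster 4 and 0.215 to cluster 1. Among the 30 nearest neighbours of its cells in 10 principal components, 76.2% in replicate 1 and 76.0% in replicate 2 were in cluster 6 itself, 7.70% and 6.203% in cluster 2, and 5.13% and 5.74% in cluster 11. When each cell was given to the cluster with the most likely profile, 1281 of the 1575 cells stayed (81.3%) and 138 went to cluster 11. The cluster then held 1683 cells, among them 126 from cluster 1 and 110 from cluster 2. The border of the cluster was thus not sharp, and lay towards other cells with cell cycle transcripts and towards myoblasts.

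The comparison with cluster 11 asks how the 2 clusters with the highest S phase levels differed. Of 10692 genes, 407 were higher in cluster 6 (3.81%) and 485 lower (4.54%), with a median of −0.06 over all genes. No gene of the S phase, licensing, fork, nucleotide, chromatin or repair lists was called in either direction, and no G2/M gene. The medians of the S phase list and of the G2/M list were −0.05 and 0.03. The sign of the S phase median turned to 0.01 with TMM factors or DESeq2 size factors and to 0.06 without doublets, and that of the G2/M median turned to −0.20 with cells assigned by profile. Among the alternatives that kept both libraries, 1 of 54 G2/M genes was higher with TMM factors, DESeq2 size factors or without doublets. With cells assigned by profile 1 was lower. With 1 library left out, where a gene had to pass in the other library only, calls in the G2/M and licensing lists also arose. MCM3 had 0.28 and PCNA −0.02. The S phase list ran from −0.34 for POLA1 to 0.25 for CCNE2, so that its genes did not set the 2 clusters apart at 1.5-fold.

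MYOD1 and other myogenic regulators were among the genes that were higher in cluster 6. MYOD1 had a ratio of 2.09, at 6.07 and 5.44 in cluster 6 and 1.30 and 1.41 in cluster 11. Of 18 myogenic regulators tested, 5 were higher and 0 lower: MYOD1, MYOG (2.70), MEF2D (1.62), HEYL (1.47), a transcription factor of the Notch pathway, and TCF12 (0.90), an E protein that pairs with MYOD1. MYF5 went the other way, with 1.08 and 1.05 in cluster 11 and a ratio of −0.28, and was not called. Without the doublets, MYOG had a ratio of 1.93 and MYOD1 levels of 6.16 and 5.58 in cluster 6.

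Of 23 genes of the muscle list, 15 were higher and 0 lower, with a median of 1.68. ACTC1, the cardiac actin that myoblasts also make, was the first of the leading genes, at 11.3 and 10.2 in cluster 6 against 1.29 and 1.26 in cluster 11, a ratio of 3.08 ± 0.08. TNNC2 (2.77), KLHL41 (2.64), NEB (2.62), MYLPF (2.40) and DES (2.22) encode parts of the sarcomere and its scaffold. Without the doublets, the ratio of MYLPF was 1.65 and that of TNNC2 2.43. DES was at 4.08 and 3.78 against 0.932 and 0.762. FITM1, a protein of lipid droplet formation that is abundant in muscle, had 2.82. Cluster 6 stood between cluster 11 and the clusters with the most muscle transcripts, since ACTC1 was at 60.1 in cluster 3 and 150 in cluster 12 and DES at 10.5 and 22.3. Without the doublets, 12 of 20 muscle genes tested were higher, and ACTC1 was at 8.79 and 7.14.

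CDKN1C was the second of the leading genes here, at 3.03 and 3.11 in cluster 6 and 0.456 and 0.330 in cluster 11, a ratio of 2.98 ± 0.36. Without the doublets it had 2.07 and 2.14 against 0.375 and 0.301. CDKN1A had a ratio of 0.78, and SKP2, the ligase subunit that targets inhibitors of this family, 0.80. Cluster 6 thus had more transcripts of 2 inhibitors than cluster 11, with overlapping S phase levels, and fewer than all other cells. Of 24 regulators of the G1 and S phases, 5 were higher than in cluster 11, and 4 without the doublets. IGFBP3 was at 2.96 and 2.83 against 0.859 and 0.850.

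Among the leading genes that were lower than in cluster 11, IGFBP5, another binding protein of insulin-like growth factors, was at 0.403 and 0.484 in cluster 6 and at 2.32 in cluster 11, a ratio of −2.39 ± 0.11. FGF7, a fibroblast growth factor, was at 0.458 and 0.545 against 2.13 and 2.42, and the protease PRSS23 at 0.379 and 0.415 against 1.61. SPP1, osteopontin, had a ratio of −1.22. ITGA5 (−1.52), TMEM158 (−1.28) and CSTB (−1.27) were lower too.

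**Figure D4:**
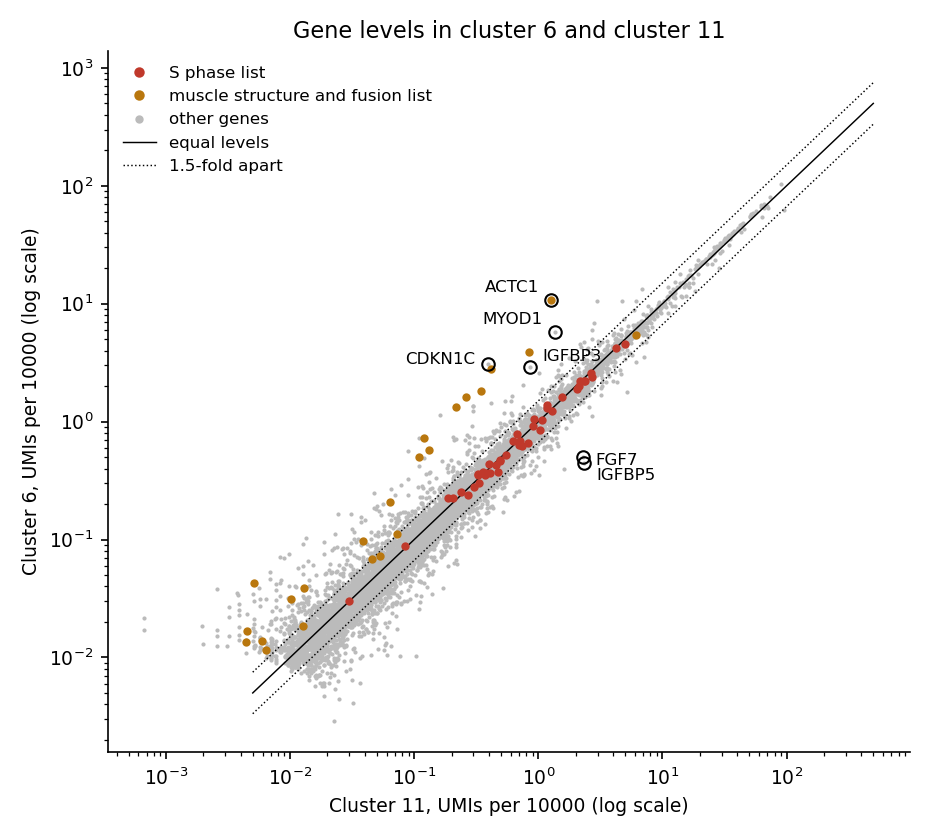
Level of each gene in cluster 6 (y axis) against cluster 11 (x axis), means of both libraries in UMIs per 10000 UMIs on log scales, with lines at equal levels and at 1.5-fold. The S phase list (red) lies along equal levels, while muscle genes (brown), MYOD1 (5.75 against 1.35) and CDKN1C (3.07 against 0.393) lie above and FGF7 (0.502 against 2.27) lies below.

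Cluster 2 had the highest G2/M level, and the most MYOD1 among the deep clusters. Of 11132 genes, 225 were higher in cluster 6 (2.02%) and 374 lower (3.36%), with a median of −0.02. The G2/M list was lower in 51 of 54 genes, with a median of −1.27 and none higher. ASPM, which organises spindle poles, was at 0.544 in both libraries against a mean of 3.26, a ratio of −2.58. CCNB1, the cyclin of mitotic entry, had −2.26, KNSTRN −2.18, CENPE −2.08 and CENPF −2.04.

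Of the S phase list, 15 of 43 identifiers were higher and 0 lower, with a median of 0.49. CDC6 had a ratio of 2.82, with 0.372 in cluster 6 and 0.0531 in cluster 2, and CDT1 had 1.83 at low levels. CCNE2 (1.52), CCNE1 (1.44), EXO1 (1.204), SLBP (1.12), PRIM1 (1.01), a primase subunit, and GMNN (0.94) were also higher. The helicase subunits other than MCM3 (0.85), from 0.23 for MCM7 to 0.53 for MCM4, were not called. DBF4 (−0.91) and ASF1B (−0.67) were lower. ACACB was the first of the leading genes, at 1.40 and 1.29 against 0.472 and 0.486, a ratio of 1.49.

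MYOD1 had a ratio of −0.23 and DES one of −0.03, and of 19 myogenic regulators PAX3 alone was called. It had 17 and 19 UMIs in cluster 6 and 14 and 4 in cluster 2, with ratios of 0.59 in replicate 1 and 2.47 in replicate 2, so that its size rests on a few UMIs of 1 library, and it was not called at a 2-fold limit. Without the doublets 0 of 17 regulators were higher and 1 was lower, and MYOG was at 0.536 and 0.311 in cluster 6 against 1.05 and 1.00 in cluster 2. Of 25 muscle genes 0 were higher and 2, MYLPF and ACTC1, were lower, against 2.02% and 3.36% of all genes. Without the doublets 9 of 24 were lower, and MYLPF fell from 1.91 and 1.74 to 1.29 and 0.920 in cluster 6. CDKN1C was lower, with a ratio of −1.17. PDGFRA had 0.00.

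Cluster 1 held myoblasts with few cell cycle transcripts and was the largest cluster, with 2493 cells. Of 11088 genes, 952 were higher in cluster 6 (8.59%) and 509 lower (4.59%), with a median of 0.03. All 43 identifiers of the S phase list were higher, with a median of 1.98, and so were 48 of 54 G2/M genes, with a median of 1.96. RRM2 was the first of the leading genes, at 2.50 and 2.31 against a mean of 0.170, a ratio of 3.82 ± 0.11, and ESCO2 (3.72), UHRF1 (3.58) and TOP2A (3.36), a topoisomerase, were also among the leading genes. CDC6 had 4.61 and FBXO5, an inhibitor of the anaphase-promoting complex, 4.55, both from low levels in cluster 1.

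MYOD1 hardly differed between clusters 6 and 1, with a ratio of 0.15. MYF5 was lower in cluster 6, at 0.868 and 0.887 against 1.599 and 1.497, a ratio of −0.82, and it was the only one of 19 myogenic regulators called, while 2 of 18 were lower without the doublets. The cyclins CCND2 (−0.67) and CCND3 (−0.75), which respond to growth factors, were lower, as were CDKN1A (−1.02) and CDKN1C, at 3.03 and 3.11 against 9.95 and 10.6 (−1.74). The other leading genes that were lower were ALDH1L2 (−1.63), a mitochondrial folate enzyme, MKNK2 (−1.42), a kinase of a translation factor, ATF5 (−1.33), a transcription factor, and RAB13 (−1.26), a small GTPase. Of 13 fibro-adipogenic markers 0 were higher and 4 lower, with a median of −0.38, and the collagens COL1A1, COL1A2 and COL3A1 among them had ratios of −0.87, −0.75 and −0.59, while COL6A3 had 0.22 and was not called. Of 24 muscle genes, 1 was higher and 3 lower, against 8.59% and 4.59% of all genes. Without the doublets 1 was higher and 11 lower.

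The lipid list asks whether ACACB moved with other genes of fatty acid metabolism. Of 27 genes, 2 were higher than in all other cells, ACACB and FABP3, a carrier of fatty acids in muscle, and 1 was lower, PPARG, the regulator of fat cells, at 8 and 12 UMIs. FABP3 was at 5.67 and 5.55 against 3.54 and 3.46. The median of the list was −0.01, and over all genes 2.56% were higher and 5.95% lower. FASN and SCD, which make and desaturate fatty acids, had ratios of 0.45 and 0.51 and were not called. ACACA, the form of the carboxylase that feeds synthesis, had 0.25. MLYCD, which breaks malonyl-CoA down, and CPT1A, the enzyme that it restrains, had −0.29 and −0.01. Against cluster 1, 7 of 24 genes were higher, among them SCD (1.07), ELOVL6 (1.12) and FASN (0.92), and 2 lower.

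Markers of other cell types were searched for in the cluster. Of the 14 fibro-adipogenic markers 13 were tested, of which 0 were higher and 5 lower than in all other cells, with a median of −0.61. PDGFRA was at 0.119 and 0.124 against 0.346 and 0.328. The summed list was at 98.6 and 98.7, ninth of the 15 clusters, against 619 in cluster 7, 273 in cluster 8 and 89.4 in cluster 9, so that the sum did not set cluster 6 below cluster 9. It was carried by COL1A2, which gave 38.7% of its UMIs, and by COL3A1 and COL1A1, which myogenic cells make too.

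PECAM1 and EMCN of endothelial cells, RGS5 of pericytes, MYOCD of smooth muscle, SOX10 and FOXD3 of glia and PTPRC, CD79A and TYROBP of blood cells had no UMI in cluster 6. The endothelial list summed to 0.0204, with 32 UMIs of CLDN5 as its most abundant gene, and the immune list to 0.0234, mostly CD68 with 61 UMIs. The pericyte list summed to 0.429, of which NOTCH3 gave 73.5%, the glial list to 0.319, of which S100B gave 96.7%, and the smooth muscle list to 5.81, of which ACTA2 gave 86.4%. Other members of the same lists were present, with ACTA2 at 5.02 UMIs per 10000, NOTCH3 at 0.315 from 985 UMIs and S100B at 0.309 from 968 UMIs, and their part in the results was not tested. Ribosomal protein genes took 2624 of 10000 UMIs, seventh of the 15 clusters.

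Single cells were compared after thinning each to 5000 UMIs, which left out 1 cell of cluster 6 in replicate 1. A UMI of MYOD1 was present in 87.0% of the cells in replicate 1 (exact 95% interval 84.6 to 89.3%) and in 85.6% in replicate 2 (82.8 to 88.0%). In cluster 11 the shares were 37.5% and 39.8%, and in cluster 2 they were 89.4% and 89.5%. Cluster 9, which the authors called fibro-adipogenic and which should lack MYOD1, gave 15.7% and 12.6%, at unthinned median depths of 22383 and 23601 UMIs against 17567.5 and 18385.5 in cluster 6. Without the doublets the share in cluster 9 was 7.43% and 7.51%, and that in cluster 6 was 86.8% and 84.9%. The share in cluster 6 was therefore far above that background in both libraries. Unthinned, 97.8% of the cells of cluster 6 had a UMI of MYOD1.

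MCM3 was found in 74.1% and 76.6% of the thinned cells, against 67.4% and 69.2% in cluster 11 and 14.8% and 17.5% in cluster 1. DES was found in 71.2% and 73.0%, against 31.9% and 26.3% in cluster 11 and 25.4% and 22.5% in cluster 9. MYF5 was in 30.3% and 29.8%, against 4.10% and 3.24% in cluster 9, and MYOG in 15.01% and 13.1%, against 7.68% and 7.89%. Without the doublets MYOG was in 12.2% and 9.21% of the cells of cluster 6 and in 5.02% and 6.10% of those of cluster 9, and in replicate 2 the intervals, 7.03 to 11.8% and 4.03 to 8.82%, overlapped. MYF5 was then in 28.6% and 28.9%, against 2.41% and 1.64%. PDGFRA was in 4.60% and 5.61%, whereas 50.5% and 50.0% of the cells of cluster 9 had it. PAX7, with 0.363% and 0.267% of cells, and PAX3, with 0.605% and 0.668%, had intervals that overlapped those of cluster 9 and were not detectable above background at this depth.

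**Figure D5:**
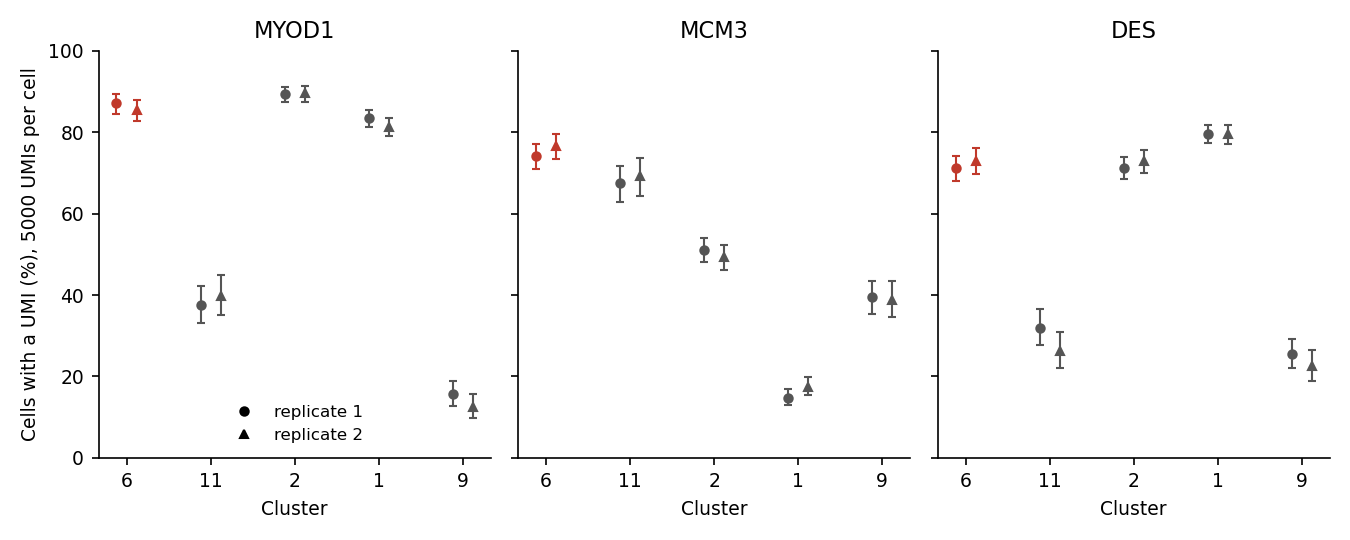
Share of cells with at least 1 UMI of MYOD1, MCM3 and DES (y axis, %) in clusters 6, 11, 2, 1 and 9 (x axis) after thinning to 5000 UMIs per cell, with exact 95% binomial intervals; circles are replicate 1 and triangles replicate 2. Cluster 6 matches cluster 2 for DES (71.2% and 73.0% against 71.3% and 72.8%) and exceeds cluster 11 for MYOD1 with no overlap of the intervals.

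Within the cluster the thinned cells held a median of 23 UMIs of the S phase list in both libraries, with quartiles of 19 and 29 in replicate 1 and 17 and 28 in replicate 2. The G2/M list had medians of 31 and 29, with quartiles of 21 and 42 and of 20 and 41, so that the cells spread more widely for G2/M than for S phase genes. The variance over the mean was 6.67 and 6.46 for G2/M and 2.43 and 2.67 for S phase. MYOD1 had a median of 2 UMIs per cell in both libraries, and at least 5% of the cells held 8 or more in replicate 1 and 7 or more in replicate 2.

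Cells with and without a UMI of MYOD1 had like numbers of S phase UMIs. In replicate 1 the 107 cells at 0 had a mean of 24.9 UMIs of the S phase list and the 719 others 23.5, and in replicate 2 the 108 cells at 0 had 22.6 and the 640 others 22.4. Across the thinned cells, the rank correlation (Spearman) of S phase UMIs with MYOD1 UMIs was −0.125 in replicate 1 and 0.0009 in replicate 2. The differences and correlations were not tested, as cells are not replicates. The cells called doublets had fewer S phase UMIs, with means of 16.5 and 15.7 against 24.98 and 24.03 in the rest, at median depths of 27252 and 29032.5 UMIs against 17165 and 17867. Without them the S phase level of the cluster was 48.7, above the 44.3 with them.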

How the data were processed

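Per the labels and the methods of the study, the authors used Cell Ranger 3.0.2 with the assembly ARS-UCD1.2 for alignment, UMI counting and cell calling, and the libraries were combined by its aggr step, set to normalise by mapped reads. In this series the deposited counts are whole UMI numbers for 21867 genes in 19096 barcodes, the number of cells that the study states, and no removal of doublets is described. The suffix of a cell's barcode gave its library. The authors also deposited, for 16816 genes, an average per cluster, scaled to the median of 14889 UMIs per cell, which was used only to find the cluster of each cell (30 rounds of elimination, largest distance from a whole number 0.000110). Their fold changes and p-values per cluster were not used.

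The members, the gene lists and the comparison clusters were chosen with earlier results of these data known. Counts were summed per cluster and library and divided by the UMI total of that cluster in that library. The genes named are the 3 markers, members that lead or end a list or bear on it, and the 12 highest and 8 lowest called genes against all other cells, 8 and 8 against cluster 11 and 5 and 5 against clusters 2 and 1, at 1 UMI per 10000 or more, except that a few genes are not reported here. Sums of 1 library share its preparation, and their log2 ratios of replicate 1 to 2 correlated across genes, from 0.44 with cluster 11 to 0.67 with all other cells, so the library was taken as a block in an alternative.

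Whole tables were counted with edgeR 4.0.16 (TMM, filterByExpr, quasi-likelihood test, Benjamini-Hochberg) and DESeq2 1.42.0. The edgeR test and the fold rule were tried on simulated data, and DESeq2 was not. Scrublet in scanpy 1.11.5, with an expected rate of 8%, marked 0 and 1 cells at its automatic threshold, so that the highest 8% of scores of each library were set as the limit, chosen once this failure was known. This marked 755 cells in replicate 1 (7.60%) and 642 in replicate 2 (7.01%), as cells with scores tied at the limit were not marked. Gene coordinates and sequences are not given, as no genome of this build was at hand.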

Additional observations from a re-analysis of the deposited data

How the results depend on the processing

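For 80 gene ratios, 610 alternative values were computed, of which 415 moved a ratio by less than the spread between libraries and 195 by more. No ratio of a called gene changed sign, but many of these genes had been picked for their large ratios. Among the ratios not called, those of DES and PDGFRA to cluster 2, −0.03 and 0.00, became 0.01 and −0.06 without replicate 2, MYOG to cluster 1 turned from −0.29 to 0.03 without replicate 2, PDGFRA to cluster 2 became −0.08 without doublets, and PDGFRA to cluster 1 turned from −0.08 to 0.09 with cells assigned by profile. Without doublets MYOG of cluster 6 lay further below cluster 1, at 0.536 and 0.311 against 0.803 and 0.902. The numbers of genes called depended on the rule. Genes higher and lower against all other cells, cluster 11, cluster 2 and cluster 1 were 330 and 766, 407 and 485, 225 and 374, and 952 and 509. A 2-fold limit gave 91 and 360, 185 and 151, 39 and 126, and 470 and 127. When low counts were not filtered, 1219 genes were higher than in all other cells, 721 were higher and 1027 lower than in cluster 11, 551 and 728 than in cluster 2, and 1013 lower than in cluster 1. With edgeR in place of the fold they were 1387 and 1239, 966 and 852, 823 and 849, and 2351 and 1938, and with the library as a replicate block 2840 and 2451, 1822 and 1649, 2126 and 1942, and 3170 and 2934. DESeq2 called 1267 genes higher than in all other cells, 467 higher than in cluster 2, and 1587 higher and 1188 lower than in cluster 1. With 1 library left out, a gene had to pass in 1 library only, and the counts were 648 to 670 and 1340 to 1416, 644 to 735 and 901 to 955, 506 to 554 and 674 to 709, and 882 to 924 lower than in cluster 1. The S phase level of cluster 6 was 48.7 without doublets and 41.8 with cells assigned by profile, against 44.3. Its G2/M level was 66.4 without doublets, and its muscle level 24.7 without doublets and 26.3 by profile. The share of cells with MYOD1 was 95.01% at 10000 UMIs and 97.8% without thinning, against 86.3%. MYOG and CDKN1C, whose ratios to all other cells were −2.53 and −1.92 without doublets, were both called without the doublets too. The libraries came from 1 calf, the clusters from the same counts that describe them, and free RNA was judged by cluster 9 only.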
